A study of Mus musculus with 6 samples.

Results

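Purine nucleotides are made, reused and broken down by a connected set of enzymes, and 45 genes for these steps were followed here in a mouse line of acute myeloid leukaemia treated with DB2313, a small molecule described as an inhibitor of the transcription factor PU.1. The genes were listed by the step they serve, with xanthine dehydrogenase (Xdh) at the centre because its signal was known to be much lower with DB2313 in these same arrays. Of the 45 genes, 40 were measured among the 22180 genes of the table. For each gene the brightest row of the table was used, as judged by the mean over all 6 arrays. Impdh2, Gmpr and Gmpr2 matched no row used here, and Pfas and Ak3 lay in rows shared with another gene symbol, so these 5 were not analysed here. Xdh is described without a test, since its difference led to the choice of the list. The other 39 genes were taken for their function, though earlier results of these data were known at that time. They were read from a test over all 22180 genes.

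The line is labelled PU.1low URE-/-. It came from a mouse at the leukaemic stage that lacked the URE, the upstream regulatory element of Spi1, the gene that encodes PU.1. Both groups therefore carry the deletion and low PU.1, no untreated or wild-type cells enter the comparison, and all cells belong to a single line. The vehicle group received water and the other group DB2313 at 330 nM, each for 24 h, with 3 arrays per group that are labelled biological replicates. The labels do not say whether the cultures were started separately, so a p-value here reflects the spread among these 6 samples, which may be technical.

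Cells assemble the purine ring on activated ribose phosphate in a chain of reactions that ends at inosine monophosphate (IMP), from which AMP and GMP are made. Salvage enzymes rebuild nucleotides from free bases and nucleosides at lower cost. Nucleotidases, deaminases and phosphorylases run the other way and release hypoxanthine and guanine, which end as xanthine. Xanthine dehydrogenase oxidises hypoxanthine and xanthine to uric acid, and this molybdenum enzyme can also pass electrons to oxygen.

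The arrays were alike in scale, with medians between 4.77 and 4.82 (log2). All signals below are on that log2 scale. Differences are between groups for the same gene, and a signal is set against the median or lower quartile of all genes only to show how close it lies to the lower end of the scale. At an adjusted p of 0.05 in limma, 401 genes passed, which is 1.81% of those tested. Fits that dropped a single array called 136 to 187 genes, the lowest count coming without DB2313 replicate 3. Without adjustment 2810 genes, or 12.7%, had a p under 0.05. Of 10 markers of myeloid progenitors and granulocyte precursors, 9 had a mean signal above the median of all genes, 5.17, with Elane (13.05 in vehicle), Prtn3 (12.46) and Ctsg (12.51) among them, and Cd34 (4.59) lay below it. In that list Gfi1 rose (log2 fold change 0.54, adjusted p = 0.00464) and Mpo had 0.29 with groups apart (adjusted p = 0.281). Of 5 markers of blood cell identity, Spn, Cd53, Laptm5 and Coro1a lay above the median and Ptprc, the common leukocyte antigen, below it (3.32 in vehicle). Cd53 fell (-0.49, adjusted p = 0.0113), while Coro1a had -0.30 and Spn 0.15, both with groups apart (adjusted p = 0.125 and 0.344). All 7 mast cell, 5 B cell and 5 T cell markers measured also lay below that median in mean signal, with 0 called in limma and 0 at an unadjusted p under 0.05 in all 3 lists. Of 8 macrophage markers 6 lay below it and 0 passed in limma, with 1 at an unadjusted p under 0.05, Cd68 (log2 fold change -0.47, adjusted p = 0.0554). Of 6 erythroid markers 2 were measured, and 1 of these lay below the median, as did 5 of 7 fibroblast markers. In these 2 lists 0 passed in limma, with 1 of each at an unadjusted p under 0.05, Klf1 (-0.26) and Dcn (0.25). The part of these markers in the results below was not tested. Spi1 itself was 1.29-fold lower with DB2313 (limma adjusted p = 0.0342), but lost its call in all 6 fits that dropped an array (adjusted p 0.0648 to 0.134).

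Around Xdh, 2 genes passed the test. Nt5e, the cell surface nucleotidase that turns extracellular AMP into adenosine, was 1.74-fold lower with DB2313. Ak4, a mitochondrial adenylate kinase, was 1.53-fold higher. The remaining 37 genes, including every measured gene of ring synthesis, salvage and purine base breakdown other than Xdh, did not pass. The 2 calls among 39 genes are 5.13%, against 1.81% of all genes tested. In the single directions, 1.02% of all genes were called higher and 0.789% lower. Of the 39 genes, 33 had a mean signal at or above the median of all genes. Among genes at or above that median, 3.36% were called in the same fit, against 6.06% of those 33. The median log2 fold change of the 39 genes was -0.01 and that of all genes -0.002.

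The arrays of the groups did not overlap for 15 of the 39 genes, or 38.5%, against 19.3% of all genes tested. Of these 15, DB2313 lay above vehicle for 5 and below it for 10, where the shares over all genes were 9.75% and 9.55%. All 15 were among the 33 genes at or above the median signal. In genes of that brightness 28.2% had groups apart, against 45.5% of the 33, and the part of signal level in this count was not tested. Among the 130 measured genes of the further lists read below, groups were apart for 29.2%. By list this share ran from 11.8% (further kinases and phosphatases, and transporters) to 41.7% (molybdenum genes). It was 40.9% for further purine enzymes and 34.8% for pyrimidine genes.

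Xdh was read from probe set 17347163. Its vehicle arrays gave 7.17, 7.25 and 7.05, and its DB2313 arrays 4.60, 4.73 and 4.63. The groups were far apart, and the 3 treated arrays lay below the median signal of all genes, with the vehicle arrays above it. The means were 7.15 ± 0.10 and 4.66 ± 0.07 (SD, n = 3), a log2 fold change of -2.50, or 5.65-fold lower. Adding an offset of 32 on the linear scale, which damps differences at low signal, gave -1.61 instead. Dropping single arrays left the difference between -2.55 and -2.45. Background was not measured apart from the signal, so how much of the treated signal is Xdh transcript was not tested.

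**Figure D1:**
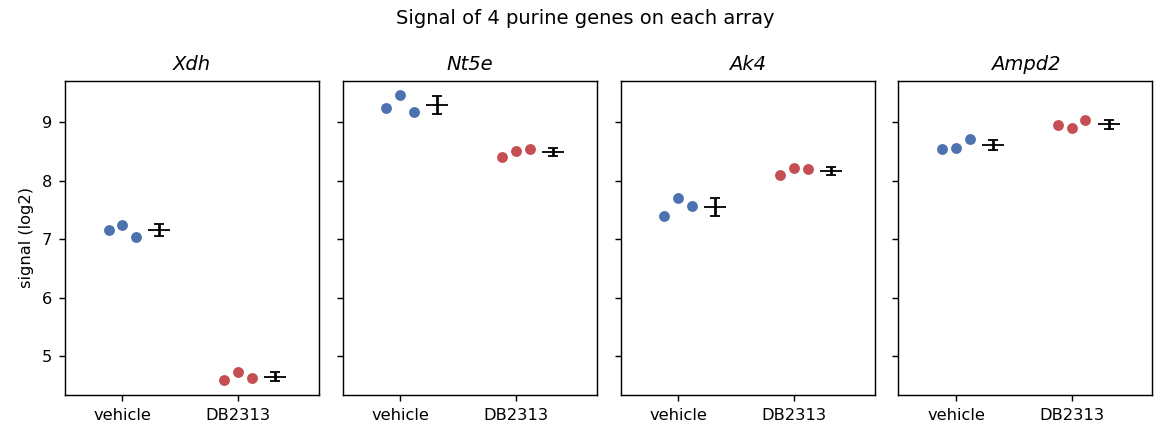
Signal (log2, vertical axis) of Xdh, Nt5e, Ak4 and Ampd2 on each of the 3 vehicle arrays (blue) and the 3 DB2313 arrays (red), with the mean and SD of each group in black. Xdh goes from 7.15 to 4.66 and Nt5e from 9.29 to 8.49, while Ak4 and Ampd2 lie higher on all 3 DB2313 arrays than on any vehicle array.

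Xdh had the lowest log2 fold change of all 22180 genes, so no other gene fell as far. The highest log2 fold change of all genes was 6.51, so the difference of Xdh was not the largest in size. The other enzymes of nucleoside and base breakdown gave no call. Of these 6 genes 0 passed in limma, 0 had an unadjusted p under 0.05, and 0 had groups that did not overlap. Over all genes these shares were 1.81%, 12.7% and 19.3%. The log2 fold changes of the 6 ran from -0.05 for Urah to 0.13 for Pnp2. Ada, the deaminase that turns adenosine into inosine, gave 6.60, 6.76 and 6.89 in vehicle and 6.79, 6.93 and 6.79 with DB2313. Its log2 fold change was 0.09, with a 95% confidence interval from -0.12 to 0.30 (adjusted p = 0.758). Pnp, the phosphorylase that splits inosine and guanosine into base and sugar, went from 5.74 ± 0.05 to 5.84 ± 0.09 (interval of the log2 fold change from -0.06 to 0.26). Pnp and Pnp2 are close relatives, and shared probe sequence between them was not checked. Gda, which deaminates guanine to xanthine and so supplies the substrate of Xdh, stayed bright on all arrays. It gave 10.41, 10.52 and 10.42 in vehicle and 10.48, 10.50 and 10.50 with DB2313, with a log2 fold change of 0.05 (interval -0.09 to 0.19). For Ada, Pnp and Gda, the intervals include changes of up to 0.30 on the log2 scale.

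Beyond Xdh, uric acid is oxidised further in mice by urate oxidase (Uox), and its product is cleaved by the hydrolase encoded by Urah. Both were dim. Uox averaged 3.24 in vehicle and 3.22 with DB2313, below the lower quartile of all genes, 3.89. Urah averaged 4.13 and 4.07. How far such signals rise above background was not measured.

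Among the 5 genes whose products strip phosphate from nucleotides, all 5 log2 fold changes were below 0 in the main fit, and 1 passed. Those of Nt5c2 and Nt5c were nearest to 0, and that of Nt5c2 ran from -0.04 to 0.03 over the 14 alternative settings. Of all genes 50.9% were below 0 and 1.81% passed. Nt5e (probe set 17520073) gave 9.24, 9.46 and 9.18 in vehicle and 8.42, 8.51 and 8.55 with DB2313. Every treated array was lower than every vehicle array, by more than the spread within either group. The means were 9.29 ± 0.15 and 8.49 ± 0.07 (SD, n = 3), and the log2 fold change was -0.80 (SE 0.088, interval -1.01 to -0.60, adjusted p = 0.00597). The call held in all 14 alternative settings, with log2 fold changes from -0.86 to -0.72 and adjusted p from 4.63e-05 to 0.0352, and in all 6 settings that left out 1 array.

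Nt5c3, a cytosolic nucleotidase that acts mainly on pyrimidine monophosphates, did not pass. Its arrays gave 7.36, 7.34 and 7.14 in vehicle and 6.89, 7.06 and 6.94 with DB2313. These groups did not overlap, and differed by -0.32 on the log2 scale (SE 0.084, adjusted p = 0.151). After removal of the dimmer genes, those under the median, its adjusted p was 0.0497, and with a trended and robust prior 0.0453. Nt5c2, the cytosolic nucleotidase that prefers IMP and GMP, had a log2 fold change of -0.004 (interval -0.16 to 0.15), and Nt5c, a deoxyribonucleotidase, -0.06. Entpd1, the surface enzyme that makes AMP from ATP and ADP and so works just before Nt5e, was dimmer than the median of all genes at 4.60 in vehicle and 4.49 with DB2313. Its log2 fold change was -0.10 (interval -0.36 to 0.15, adjusted p = 0.770), so the surface pair CD39 and CD73, the products of Entpd1 and Nt5e, had a call in the latter alone. A test of the difference between the genes was not made.

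The promoter sequences of the genes that passed are shown because PU.1 and other ETS factors recognise sites built on the letters GGAA, and PU.1 favours GAGGAA. The windows are the 250 bases before the start of the transcript farthest upstream in RefSeq, build GRCm38.p6, read in the direction of the gene, with GGAA on either strand in capitals (TTCC where it lies on the other strand). The window of Nt5e is chr9:88327359-88327608, plus strand, and that of Ak4 is chr4:101419039-101419288, plus strand. Ampd2, chr3:108085427-108085676, minus strand, is added as the gene closest to the threshold, and was chosen after its values were seen.
Nt5e: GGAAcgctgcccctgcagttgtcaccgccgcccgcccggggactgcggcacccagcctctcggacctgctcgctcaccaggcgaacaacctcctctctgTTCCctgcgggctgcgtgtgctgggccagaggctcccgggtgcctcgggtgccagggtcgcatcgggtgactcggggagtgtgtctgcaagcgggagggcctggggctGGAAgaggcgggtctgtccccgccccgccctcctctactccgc
Ak4: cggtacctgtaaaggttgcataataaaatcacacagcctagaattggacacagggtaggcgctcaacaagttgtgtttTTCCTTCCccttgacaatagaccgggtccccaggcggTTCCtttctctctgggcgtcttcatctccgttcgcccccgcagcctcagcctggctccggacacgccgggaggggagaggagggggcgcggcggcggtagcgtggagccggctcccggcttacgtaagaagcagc
Ampd2: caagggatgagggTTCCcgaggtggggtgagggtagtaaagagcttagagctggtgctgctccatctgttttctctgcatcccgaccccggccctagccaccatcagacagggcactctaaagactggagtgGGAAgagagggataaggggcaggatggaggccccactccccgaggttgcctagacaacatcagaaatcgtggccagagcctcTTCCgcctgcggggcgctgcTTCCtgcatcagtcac

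These windows hold GGAA 3 times for Nt5e, 3 times for Ak4 and 4 times for Ampd2, counting both strands, and GAGGAA 0 times in all 3. GGAA occurs in 93.4% of the 32851 promoter windows of the same length in the RefSeq table, with a median of 3 per window, and GAGGAA, which contains GGAA, in 23.3%. Of the purine genes measured, 36 had a window, 58 windows in all, and 17.2% of these held GAGGAA. Xdh was not among those 36, so no promoter sequence of it was examined. The counts describe the letters in these windows and nothing about binding.

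Ak4, read from probe set 17415932, was the 1 purine gene that rose. It encodes a kinase of the mitochondrial matrix that phosphorylates AMP with GTP or ATP. The arrays gave 7.40, 7.71 and 7.56 in vehicle and 8.10, 8.23 and 8.20 with DB2313, with no overlap. The mean went from 7.56 ± 0.15 to 8.17 ± 0.07 (SD, n = 3), so that the log2 difference was 0.61 (SE 0.089, interval 0.41 to 0.82, adjusted p = 0.0181). The size held when arrays were left out, between 0.54 and 0.69, but the call did not. Leaving out 1 array gave an adjusted p above 0.05 in 5 of 6 cases, up to 0.0827 without DB2313 replicate 3, and the call remained only without vehicle replicate 2 (adjusted p = 0.0226). The 2 other kinases of nucleoside monophosphates did not pass. Ak1, the cytosolic adenylate kinase, had a log2 fold change of -0.05 (interval -0.29 to 0.19), and Guk1, the guanylate kinase, -0.14, with 7.42, 7.41 and 7.36 in vehicle and 7.31, 7.26 and 7.20 with DB2313.

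Ampd2, an AMP deaminase that turns AMP into IMP, came close to the threshold. Probe set 17409184 gave 8.55, 8.57 and 8.71 in vehicle and 8.96, 8.90 and 9.05 with DB2313. All treated arrays were above all vehicle arrays, and the means were 8.61 ± 0.09 and 8.97 ± 0.07 (SD, n = 3). The log2 fold change was 0.36 (SE 0.073, interval 0.19 to 0.53, adjusted p = 0.0625). It passed in 4 of 14 alternative settings, namely both filters on dim genes, the offset and the trended prior, with adjusted p from 0.00336 to 0.0378, and in 0 of 6 with 1 array left out. Its dimmer second row had a log2 fold change of 0.09. The muscle form Ampd1 and the erythrocyte form Ampd3 had low signals, 3.90 and 4.91 in vehicle, and log2 fold changes of -0.16 and 0.06.

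**Figure D2:**
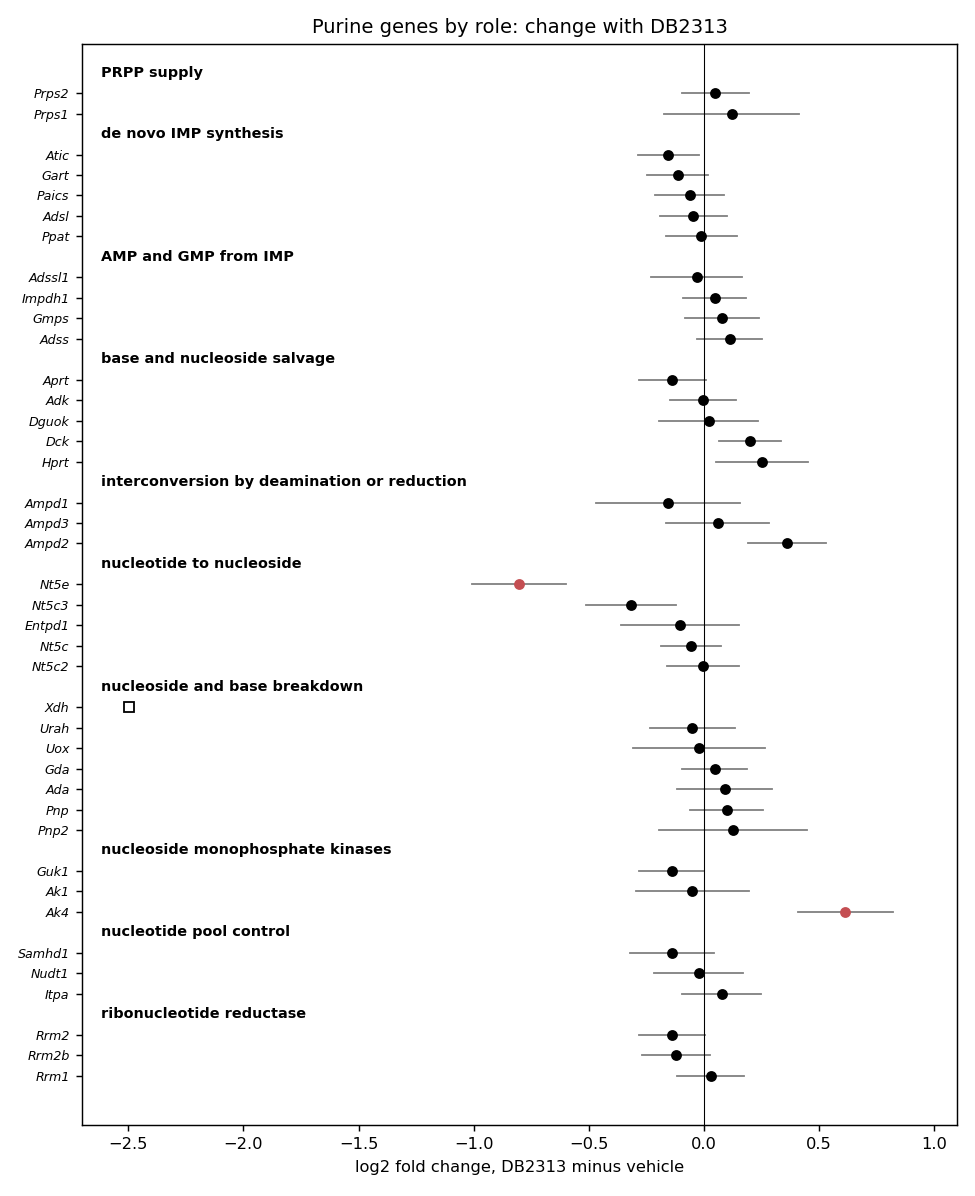
Log2 fold change (DB2313 minus vehicle, horizontal axis) of the 40 measured purine genes, grouped by role. Points are the fitted differences, grey lines their 95% confidence intervals, red points passed an adjusted p of 0.05, and the open square is Xdh, shown without an interval because it was not tested. Nt5e at -0.80 and Ak4 at 0.61 are the 2 red points, and most other intervals cross 0.

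No call was made in ring synthesis. Of the 11 measured genes for ribose activation, IMP synthesis and the steps from IMP to AMP and GMP, 0 passed in limma. Among them 1, Atic, had an unadjusted p under 0.05, where 12.7% of all genes did. Their median log2 fold change was -0.01, and 6 were below 0, or 54.5% against 50.9% of all genes. In 3 the groups did not overlap, Atic and Gart below vehicle and Adss above it. That is 27.3% of the 11, against 19.3% of all genes and 28.2% of genes at or above the median signal, where all 11 lay. Prps1 and Prps2, which make activated ribose phosphate, had 0.12 (interval -0.17 to 0.41) and 0.05. Ppat, the first committed and rate-limiting enzyme of the chain, gave 8.99, 8.93 and 9.07 in vehicle and 9.03, 9.02 and 8.92 with DB2313. The groups overlapped, and the log2 fold change was -0.01 (interval -0.17 to 0.14, adjusted p = 0.966).

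The 5 measured genes from Ppat to Atic all had log2 fold changes below 0, with a median of -0.06, while 50.9% of all genes were below 0. That of Ppat lay above 0 after quantile normalization (0.0005) and without vehicle replicate 3 (0.02) or DB2313 replicate 3 (0.02). The largest of the 5 differences was that of Atic, the bifunctional enzyme of the last steps to IMP. It lay between 10.07 and 10.08 on the vehicle arrays and gave 9.96, 9.88 and 9.91 with DB2313. The groups were apart, by -0.16 on the log2 scale (SE 0.057, adjusted p = 0.308), and Atic passed only with the offset (0.0390) or the trended prior (0.0313). Gart, the trifunctional enzyme that adds carbon and nitrogen to the ring, had -0.12 in its brightest row, with groups apart. Its dimmer rows had 0.22 and 0.06, and the mean of its 3 rows 0.06, so the direction of Gart depends on the row. Paics and Adsl, for intermediate steps, had -0.06 and -0.05.

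Beyond IMP, Impdh1, an IMP dehydrogenase of the rate-limiting step to GMP, gave 7.68, 7.77 and 7.75 in vehicle and 7.77, 7.76 and 7.80 with DB2313. Its log2 fold change was 0.05 (interval -0.09 to 0.18). Gmps, which completes GMP, had 0.08. For the step from IMP towards AMP, Adss had 0.11, with all DB2313 arrays above the vehicle arrays (9.27 to 9.30 against 9.12 to 9.24). Its paralog Adssl1 had -0.03. None of these 4 passed (limma, adjusted p from 0.517 to 0.923), and 0 had an unadjusted p under 0.05.

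The 5 salvage genes went both ways, and 0 passed in limma, with 2 at an unadjusted p under 0.05. Of all genes 1.81% passed and 12.7% had such an unadjusted p. The 2 were Hprt, which rebuilds IMP and GMP from hypoxanthine and guanine, and Dck, the kinase of deoxycytidine and purine deoxynucleosides. Hprt gave 9.32, 9.07 and 9.04 in vehicle and 9.37, 9.41 and 9.40 with DB2313. The treated arrays were close together and above all vehicle arrays, of which replicate 1 was the nearest. The log2 fold change was 0.25 (SE 0.086, interval 0.05 to 0.45, adjusted p = 0.269), and without vehicle replicate 1 it was 0.34 (adjusted p = 0.0967).

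Dck gave 8.56, 8.52 and 8.50 in vehicle and 8.71, 8.77 and 8.70 with DB2313, a log2 difference of 0.20 (SE 0.058, adjusted p = 0.196). It passed with the offset (0.0245) and the trended prior (0.0293). Aprt, which salvages adenine, lay the other way, at 9.97, 9.89 and 9.92 in vehicle against 9.84, 9.73 and 9.79, with groups apart and a log2 fold change of -0.14 (adjusted p = 0.418). Adk, the kinase that returns adenosine to AMP, had -0.006 (interval -0.15 to 0.14), and the mitochondrial kinase Dguok 0.02. Hypoxanthine and guanine are substrates shared by Hprt with the breakdown route through Gda and Xdh. Of those 3 genes, Hprt and Gda had log2 fold changes of 0.25 and 0.05, against -2.50 for Xdh.

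Ribonucleotide reductase makes the deoxynucleotides for DNA, and its 3 genes had 0 calls in limma and 0 at an unadjusted p under 0.05. The large subunit gene Rrm1 had a log2 fold change of 0.03 (interval -0.12 to 0.17). The S phase small subunit gene Rrm2 gave 8.59, 8.52 and 8.50 in vehicle and 8.43, 8.35 and 8.41 with DB2313, with groups apart and a log2 fold change of -0.14 (adjusted p = 0.405). Rrm2b, the p53-inducible small subunit, had -0.12. Of the genes that keep the nucleotide pool clean or small, Samhd1, which degrades deoxynucleoside triphosphates, had -0.14 with groups apart (adjusted p = 0.534). Nudt1, which removes oxidised purine triphosphates, had -0.02 and Itpa, which removes inosine triphosphate, 0.08. These 3 also had 0 calls and 0 unadjusted p under 0.05, where 1.81% and 12.7% of all genes did.

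Further genes of the pathway were examined as 7 lists of 145 genes in all, of which 130 were measured. In limma 1 rose and 1 fell, or 1.54% of the 130, against 1.81% of all genes tested. Both were in the list of further purine enzymes (22 measured, median log2 fold change 0.04). Mtap, which splits methylthioadenosine and so returns adenine for Aprt to use, gave 7.25, 7.04 and 7.09 in vehicle and 6.79, 6.67 and 6.65 with DB2313. The groups were apart, and differed by -0.42 on the log2 scale (SE 0.079, adjusted p = 0.0468). Ahcyl2, a relative of the enzyme that releases adenosine from adenosylhomocysteine, gave 6.17, 6.16 and 6.15 in vehicle and 6.61, 6.44 and 6.72 with DB2313. Its log2 fold change was 0.43 (SE 0.081, adjusted p = 0.0490).

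Both calls lay just inside the threshold. Without any 1 array Mtap did not pass (adjusted p from 0.0866 to 0.174), and Ahcyl2 passed only without DB2313 replicate 2 (0.0410, against 0.144 to 0.166 in the other 5 cases).

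**Figure D3:**
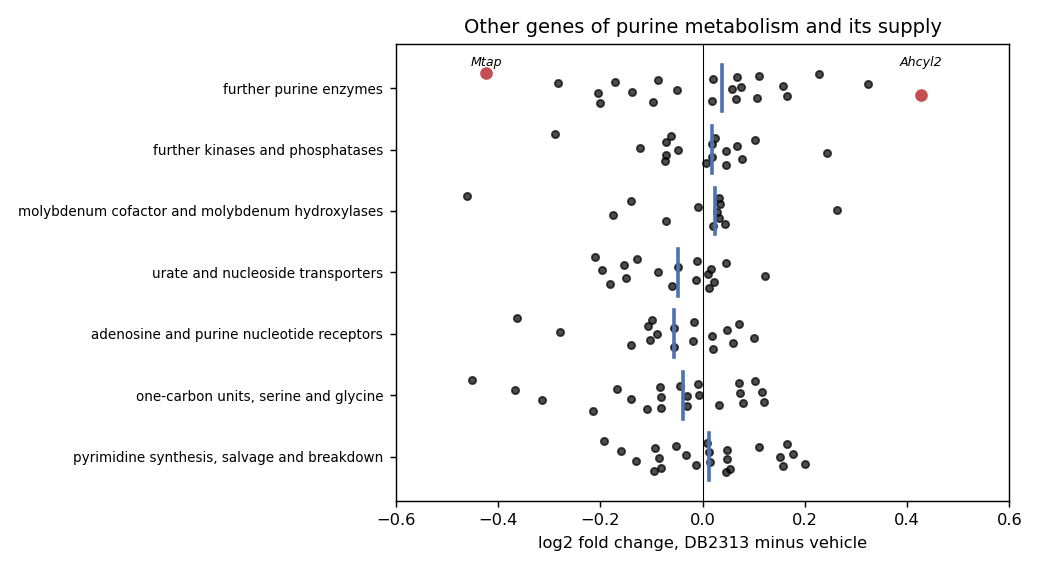
Log2 fold change (DB2313 minus vehicle, horizontal axis) of the 130 measured genes in 7 further lists around purine metabolism. Each point is a gene, the blue bar is the median of the list, and the red points, Mtap at -0.42 and Ahcyl2 at 0.43, passed an adjusted p of 0.05.

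Xdh needs the molybdenum cofactor, so the genes for that cofactor and for the other molybdenum enzymes were read as a list. Of 12 measured 0 passed in limma, and 4 had an unadjusted p under 0.05, where 12.7% of all genes did. The cofactor synthesis genes Mocs1 (log2 fold change -0.07), Mocs2 (0.02), Mocs3 (-0.14) and Gphn (0.04) had small differences. So did Mocos (-0.009), which encodes the sulfurase that activates Xdh protein. For Mocs1 and Mocs3 the groups were apart, with DB2313 below, and Mocs3 had an unadjusted p under 0.05 (adjusted p = 0.387). Over the list, groups were apart for 5 of 12 genes, or 41.7%, against 19.3% of all genes. In 4 of these 5 DB2313 lay below vehicle. Aox1, encoding an aldehyde oxidase, gave 6.82, 7.01 and 6.71 in vehicle and 6.22, 6.46 and 6.48 with DB2313. Its groups were apart, and differed by -0.46 on the log2 scale (SE 0.103, adjusted p = 0.0914), and it passed with genes below the median left out (0.0308) and with the trended prior (0.0204). The aldehyde oxidase genes Aox2, Aox3 and Aox4 had 0.03, 0.03 and -0.18, with mean signals below the median of all genes. Suox, the sulfite oxidase gene, lay the other way from Aox1 at 0.26 (adjusted p = 0.167) and passed in 1 of 14 alternative settings.

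Transport and receptor genes gave 0 calls in limma among 17 measured in each list, with 3 at an unadjusted p under 0.05 in each. Over all genes the shares were 1.81% and 12.7%. For transport of urate and of purine bases, Slc2a9 had a log2 fold change of -0.18 (adjusted p = 0.362) and Slc43a3 -0.20 (adjusted p = 0.352). Slc29a1, the main equilibrative nucleoside transporter, had 0.01. Among receptors for ATP, the channel gene P2rx4 had -0.28 (adjusted p = 0.101) and passed in 3 of 14 alternative settings. P2rx2, with the next smallest p (adjusted p = 0.162), lay below the lower quartile of all genes in both groups, at 3.68 and 3.32. Of the adenosine receptors only Adora3 was measured, at 4.60 and 4.46, below the median of all genes. Its groups were apart, with a log2 fold change of -0.14 and an unadjusted p under 0.05 (adjusted p = 0.351). Over the receptor list, groups were apart for 5 of 17 genes, or 29.4%, all 5 with DB2313 below. Of all genes 19.3% had groups apart. The list of further kinases and phosphatases also had 0 calls, with 2 of 17 at an unadjusted p under 0.05, where 12.7% of all genes had one. The 2 were Acpp, an acid phosphatase that can release adenosine from AMP (-0.29, adjusted p = 0.0894), and Entpd5 (0.24, adjusted p = 0.181). Acpp passed in 3 of 14 alternative settings and Entpd5 in 0.

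Serine, glycine and folate-bound carbon units feed the purine ring. Of 22 measured genes for their supply, 0 passed in limma and 4 had an unadjusted p under 0.05, where 12.7% of all genes did. The 22 had 15 log2 fold changes below 0, or 68.2% against 50.9% of all genes, and a median of -0.04. Phgdh, the first enzyme of serine synthesis, gave 6.81, 6.74 and 6.40 in vehicle and 6.25, 6.18 and 6.18 with DB2313. The difference was -0.45 on the log2 scale (SE 0.109, adjusted p = 0.114), and Phgdh passed in 3 of 14 alternative settings. Among these was the fit without vehicle replicate 3, the lowest vehicle array, at -0.58 (adjusted p = 0.0250). The mitochondrial folate enzyme gene Mthfd1l had -0.31 (adjusted p = 0.138) and passed in 2 of 14 alternative settings.

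Pyrimidine genes were read for contrast, and of 23 measured 0 passed in limma and 5 had an unadjusted p under 0.05, against 12.7% of all genes. The smallest p was that of Uck2, the uridine and cytidine kinase, with a log2 fold change of 0.20 in its brightest row (adjusted p = 0.173). Its dimmer row had 0.58 and passed when all rows were tested (adjusted p = 0.00894), and the mean of both rows passed as well (0.39, adjusted p = 0.0219). Dtymk, the thymidylate kinase, had 0.16 (adjusted p = 0.298) and passed in 1 of 14 alternative settings.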

How the data were processed

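Total RNA was extracted, labelled with biotin and hybridised to Affymetrix arrays, per the labels' protocols. Per the submitters' processing notes the authors used Affymetrix Expression Console, while for background correction, probe summary and genome build no source used here gives a method. The deposited values are log2 signals, 1 per probe set and array, as judged from their range. The nearly equal array medians look like those of normalized data, so an overall change in RNA content would not show. The number of arrays limits the precision.

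Of 41345 rows, 23521 had 1 symbol in the platform annotation, 1814 several and 16010 none. Rows with 1 symbol were kept, with the brightest row per gene, which left 22180 genes. Groups were compared with limma 3.58.1 in R 4.3.3 (lmFit, eBayes, 2-sided), with Benjamini-Hochberg adjustment over all genes at 0.05 and no minimum fold. Intervals are at 95% and unadjusted. The script was tested on simulated data. The genes and lists were chosen with earlier results of these data known. All 45 listed genes are accounted for, and from each further list up to 4 genes past the threshold, or else the 2 with the smallest p, are named. Genes named beyond this were chosen for their role. Alternatives were 2 filters on dim genes, quantile normalization, median centring, an offset of 32, a trended and robust prior, the replicate block, the mean of rows, and each array left out.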

Additional observations from a re-analysis of the deposited data

How the results depend on the processing

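Over 14 alternative settings the count of genes past the threshold, 401, became 799 once the dimmer genes, under the median, were removed, 830 with an offset of 32, 920 with a trended and robust prior, and 136 to 187 with 1 array left out. The count of purine genes past it, 2 apart from Xdh, became 4, 5 and 6 in the first 3 of these settings and 1 to 2 with 1 array left out, the lower count being Nt5e alone. With the replicate number as a block, 190 genes passed, and Nt5e and Ak4 both remained. Mtap (adjusted p = 0.0690), Ahcyl2 (0.114) and Spi1 (0.113) did not pass under this replicate block. Same-numbered arrays had correlations of their deviations from the group means of 0.02, 0.08 and 0.008, so the numbers were not treated as pairs. Ahcyl2 also did not pass after quantile normalization (0.0578). Of the 55 genes compared across settings (the 40 purine genes, 14 from the further lists and Spi1), 0 that passed in any setting changed sign. Signs of values that did not pass changed 21 times, in 11 genes with a log2 fold change of at most 0.12 in size. The causes of these shifts were not tested. Signal near the lower end of the scale limits what can be said of Uox, Pnp2 and Ampd1, which both filters left out.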

Other observations

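The nearest measured protein-coding genes beside the 3 genes that stood out, in the order of the RefSeq gene table for GRCm38.p6, gave no call. Beside Xdh, the log2 fold changes were -0.10 for Ehd3 and 0.02 for Galnt14 on the lower side, and -0.17 for Memo1 and -0.06 for Dpy30 on the upper side (limma adjusted p from 0.388 to 0.955). Beside Nt5e, Tbx18 had 0.14, Cep162 0.14, Snx14 -0.08 and Syncrip -0.05. Beside Ak4, Jak1 had -0.06, Raver2 -0.15, Dnajc6 -0.08 and Leprot 0.02. Among these neighbours the arrays did not overlap for Memo1, Cep162, Raver2 and Jak1. Groups were apart for 19.3% of all genes and for 28.2% of genes at or above the median signal. Memo1, Cep162 and Jak1 lay above that median and Raver2 below it.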
